A study of Mus musculus with 24 samples.

Results

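A set of 9 genes of the DNA methylation machinery, listed by name and not by their values, was read from a table of 33902 gene symbols. The set comprised the writers Dnmt1 and Dnmt3a, the erasers Tet1, Tet2 and Tet3, and the readers Mbd1, Mbd2, Mbd3 and Uhrf2. The table held single-nucleus RNA sequencing counts summed over the nuclei of 17 cell types in each of 4 libraries of ventral hippocampus, 2 from C57BL/6J (B6) and 2 from DBA/2J (D2). The mice of both strains were adult males aged 10 to 16 weeks, about 2 animals were pooled per replicate, and nuclei were sorted for the neuronal marker NeuN so that neurons were enriched. Of the 24 samples of the study, 16 measured methylation and were not analysed here; the other 8 were these 4 RNA libraries and 4 libraries of chromatin accessibility from the same strains. The columns carried the numbers 2 and 3 within each strain, so they are named here B6 library 2, B6 library 3, D2 library 2 and D2 library 3.

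DNA methyltransferases place a methyl group on cytosine. DNMT1 copies the mark to the new strand after replication, and DNMT3A places it on unmethylated DNA, including the non-CG cytosines that become methylated in maturing neurons. The TET dioxygenases oxidise methylcytosine to hydroxymethylcytosine and further products, which repair can replace by plain cytosine, and hydroxymethylcytosine is abundant in brain. MBD1 and MBD2 bind methylated CG, MBD2 and MBD3 are alternative subunits of the NuRD chromatin remodelling and deacetylase complex, and UHRF2 is a ubiquitin ligase that can bind hydroxymethylcytosine.

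The tables held 16565 B6 and 14315 D2 nuclei, 45 to 1489 per column, and the 68 columns summed to between 139713 and 11352265 counts. Levels are given as CPM, the usual scaling of a count by the total of its column, where 3 counts were worth 0.264 CPM in the deepest Exc-DG column and 21.5 CPM in the shallowest CR-CR column. D2 reads had been mapped to a genome carrying D2 variants, and symbols counted in only 1 strain took 0.619 to 1.73% of a B6 column and 3.33 to 5.09% of a D2 column. The type names were checked against marker lists, and the values of some lists are given. Not every list was specific. The Lamp5 list summed to 341 to 575 CPM in Inh-Lamp5 and to 283 to 1290 CPM in CR-CR. The CGE list summed to 12042 to 13237 CPM in Inh-CGE, 1508 to 2021 in NN-OPC and 1103 to 1564 in Exc-DG. Astrocyte markers summed to between 2707 and 2998 CPM in NN-Astro, oligodendrocyte markers to between 7085 and 7620 in NN-ODC, precursor markers to between 2100 and 2267 in NN-OPC and microglial markers to between 3266 and 3789 in NN-MGC. NN-VLMC held vascular and leptomeningeal markers at 876 to 1097 CPM and also astrocyte markers at 739 to 1113 CPM. In CR-CR, the Cajal-Retzius marker Reln was at 4298 and 4806 CPM in B6 and at 2784 and 1226 CPM in D2. For Reln both D2 libraries thus lay below B6, as for Trp73, at 375 and 400 against 229 and 61.6 CPM. Lhx1 was 173 and 151 CPM in B6 and 251 and 73.9 CPM in D2, so D2 library 2 lay above B6. D2 library 3 was the lowest for each of these markers. The astrocyte marker Slc1a3 was at 144 and 95.3 CPM in B6 and 344 and 271 CPM in D2 in CR-CR. Gja1 overlapped there, at 22.9 and 4.14 against 28.6 and 18.5 CPM. Aqp4 was lower in D2, at 12.5 and 24.8 against 7.16 and 12.3 CPM. The D2 columns of CR-CR held 45 and 46 nuclei. The 3 CA1 markers were low in Exc-CA1-Fras1, summing to 30.5 to 55.4 CPM, mostly Pou3f1 at 21.9 to 45.5 CPM. Wfs1 there was at 3.43 to 3.93 CPM and Fibcd1 at 5.08 to 11.8 CPM. The sum was 73.2 to 105 CPM in Exc-CA1-Camk2d and 34.7 to 77.8 CPM in Exc-Gpc6. The list therefore did not bear out the CA1 name of Exc-CA1-Fras1.

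Because the genes act on cytosine in CG context, 6 promoter windows are printed, 5′ to 3′ on the gene's strand, with each CpG in capitals. The sequences are those of RefSeq, build GRCm38.p6, 250 bases before to 50 after a start. For Dnmt1 and Dnmt3a a window with a peak stands beside one without, and the Tet3 and Uhrf2 windows lie at the peaks that differed between strains. CG reads the same on both strands, and 94.6% of 32851 RefSeq promoter windows of this length hold at least 1. Windows were taken for 7 members. Those of Mbd1 and Mbd2 were left out, and these genes are named only.
Dnmt1 (chr9:20952574-20952873, minus strand, 33 CpG, overlaps an accessibility peak): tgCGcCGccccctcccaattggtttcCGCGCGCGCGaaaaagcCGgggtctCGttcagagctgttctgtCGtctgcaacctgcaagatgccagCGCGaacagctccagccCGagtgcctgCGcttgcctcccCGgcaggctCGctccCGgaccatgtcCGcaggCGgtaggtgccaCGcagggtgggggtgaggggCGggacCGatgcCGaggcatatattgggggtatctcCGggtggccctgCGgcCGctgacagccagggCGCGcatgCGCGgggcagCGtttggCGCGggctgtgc
Dnmt1 (chr9:20959839-20960138, minus strand, 2 CpG, no peak): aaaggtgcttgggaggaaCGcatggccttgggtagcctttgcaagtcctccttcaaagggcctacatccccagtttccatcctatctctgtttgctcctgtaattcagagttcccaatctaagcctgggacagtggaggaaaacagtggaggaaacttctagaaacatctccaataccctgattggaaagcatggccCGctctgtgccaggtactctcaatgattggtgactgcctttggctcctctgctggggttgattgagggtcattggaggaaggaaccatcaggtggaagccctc
Dnmt3a (chr12:3806730-3807029, plus strand, 46 CpG, overlaps a peak): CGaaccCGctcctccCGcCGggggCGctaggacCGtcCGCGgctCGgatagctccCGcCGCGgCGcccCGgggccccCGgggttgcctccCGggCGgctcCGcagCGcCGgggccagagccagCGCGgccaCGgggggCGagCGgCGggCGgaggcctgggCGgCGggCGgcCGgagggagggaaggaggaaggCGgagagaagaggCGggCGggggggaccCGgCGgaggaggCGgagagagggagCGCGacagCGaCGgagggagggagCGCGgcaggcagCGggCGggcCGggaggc
Dnmt3a (chr12:3891494-3891793, plus strand, 18 CpG, no peak): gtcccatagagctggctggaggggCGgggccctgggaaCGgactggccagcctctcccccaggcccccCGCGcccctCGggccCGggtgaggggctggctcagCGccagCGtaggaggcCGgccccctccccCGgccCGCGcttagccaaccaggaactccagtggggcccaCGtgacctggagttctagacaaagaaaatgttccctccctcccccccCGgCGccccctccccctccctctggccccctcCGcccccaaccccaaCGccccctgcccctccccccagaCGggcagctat
Tet3 (chr6:83441629-83441928, minus strand, 22 CpG, overlaps a peak): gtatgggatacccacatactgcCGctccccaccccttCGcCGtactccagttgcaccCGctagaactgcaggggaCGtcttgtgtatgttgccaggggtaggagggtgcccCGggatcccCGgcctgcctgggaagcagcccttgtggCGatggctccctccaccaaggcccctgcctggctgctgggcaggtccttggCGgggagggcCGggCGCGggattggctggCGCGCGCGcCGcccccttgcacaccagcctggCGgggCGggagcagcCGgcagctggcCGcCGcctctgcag
Uhrf2 (chr19:30030263-30030562, plus strand, 28 CpG, overlaps a peak): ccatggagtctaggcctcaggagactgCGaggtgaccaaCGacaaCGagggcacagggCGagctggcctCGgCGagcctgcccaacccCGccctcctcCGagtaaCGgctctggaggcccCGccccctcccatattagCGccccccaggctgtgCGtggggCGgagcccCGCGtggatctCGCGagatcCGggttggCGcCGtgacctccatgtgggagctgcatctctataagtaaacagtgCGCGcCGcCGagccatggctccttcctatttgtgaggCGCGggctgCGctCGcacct

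The printed windows of the first Dnmt3a start and the upstream Dnmt1 start lie far apart in CpG number. As many CpG as in the Dnmt3a window were held by 1.65% of all windows, and as many as in the upstream Dnmt1 window by 85.9%. The windows of Tet2, with 57 CpG, Tet1, with 17, and Mbd3, with 22, each overlapped a peak. In all, 9 of the 11 windows of these 7 members overlapped a peak of the deposited peak table, against 56.5% of all windows. Across all windows the median was 18 CpG with a peak and 3 without. The 2 member windows without a peak had 2 and 18 CpG.

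All 9 genes were detected in every column of the RNA table. Summed over the 68 columns, counts ran from 3035 for Mbd3 to 31316 for Dnmt3a. Divided by the length of the gene, since intronic reads were counted, the median level over cell types was 2.53 CPM per kilobase for Mbd1, 2.02 for Mbd3, 1.59 for Uhrf2 and 1.45 for Dnmt3a. It was 0.997 for Tet2, 0.890 for Mbd2, 0.765 for Tet3, 0.357 for Dnmt1 and 0.341 for Tet1. Dnmt1 and Tet1 were therefore the lowest per length, and Mbd1 was the highest. A level in CPM is a share of the RNA of a cell type's nuclei, so fewer nuclei with the transcript and less of it per nucleus cannot be told apart.

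**Figure D1:**
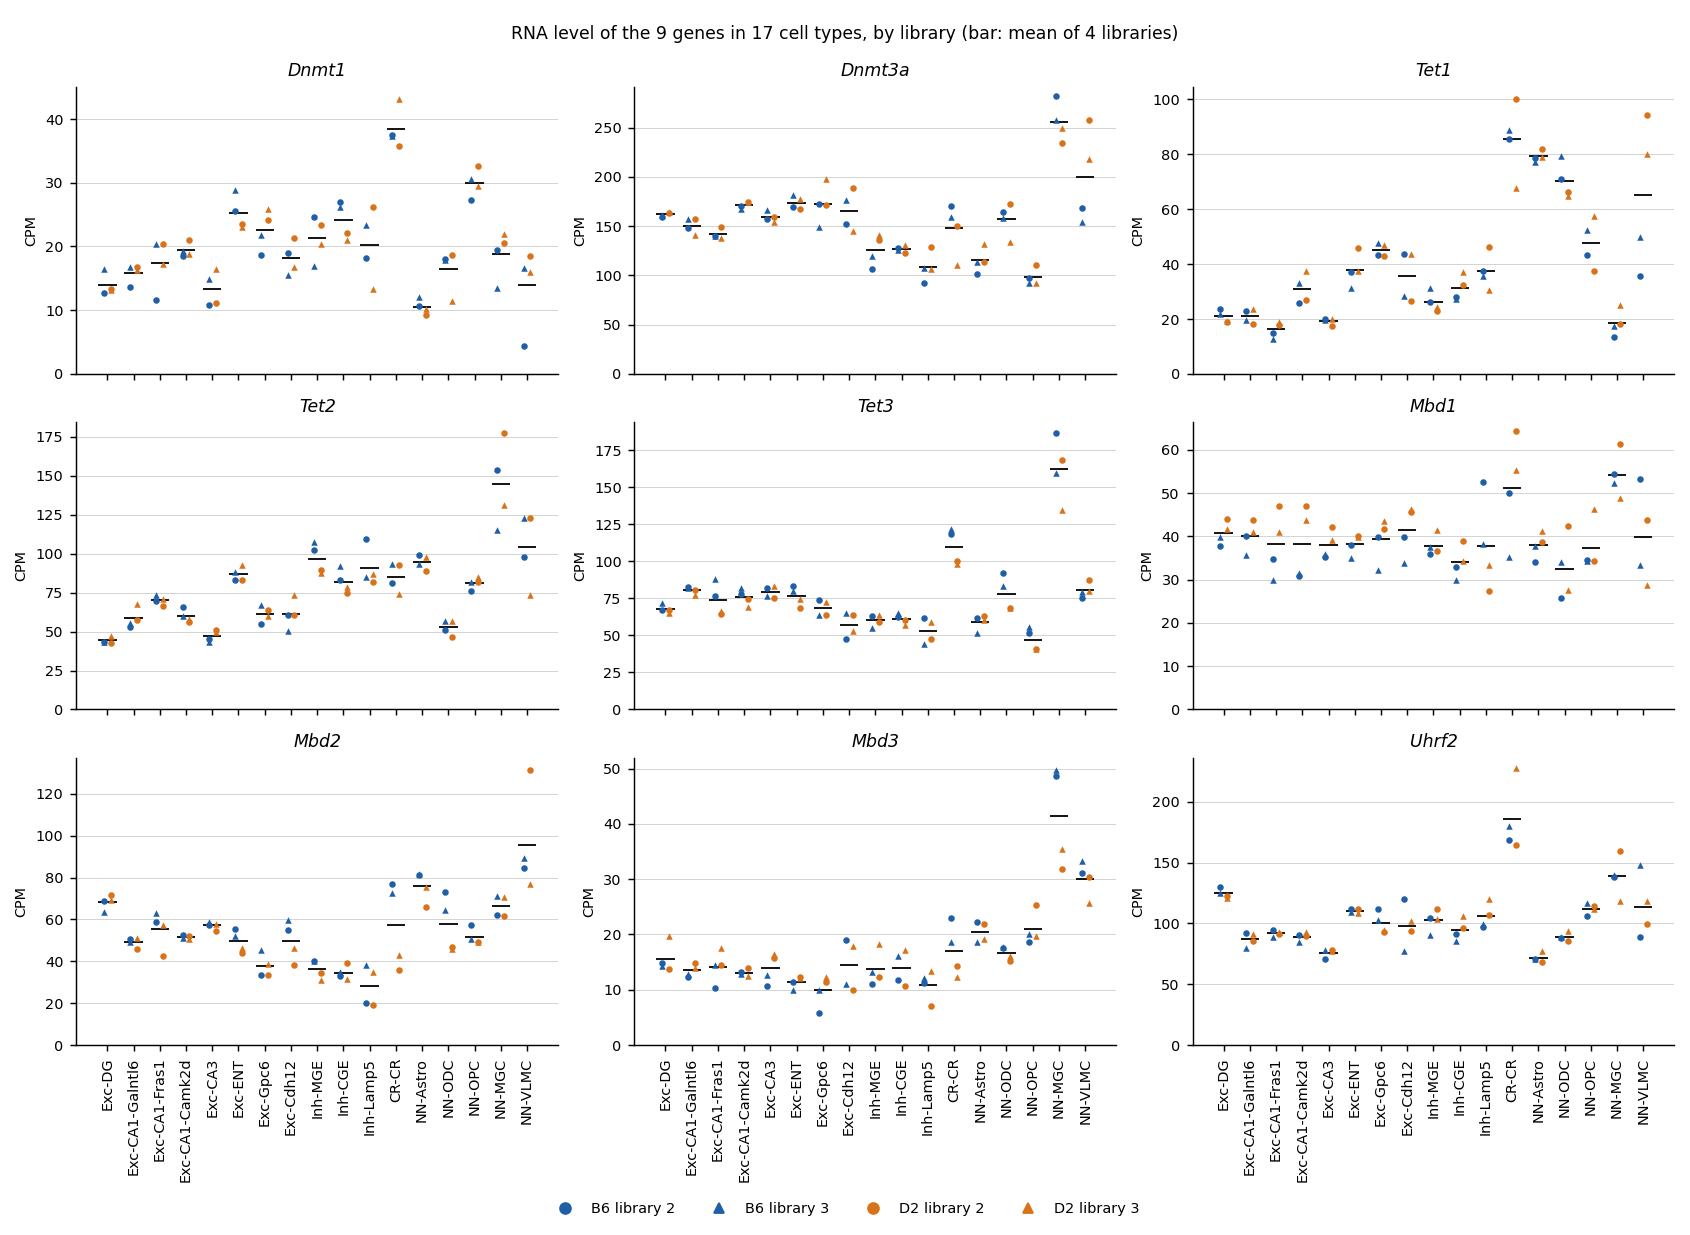
RNA level in CPM (vertical axis) of each of the 9 genes in the 17 cell types (horizontal axis), 1 panel per gene, with a point for each B6 or D2 library and a bar at the mean of the 4 libraries. Microglia (NN-MGC) have the highest mean for Dnmt3a, Tet2, Tet3, Mbd1 and Mbd3, and CR-CR for Dnmt1, Tet1 and Uhrf2.

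Cell types were compared by 7 contrasts fitted across 19198 genes with edgeR's quasi-likelihood test, with library as a covariate and Benjamini-Hochberg adjustment over all genes. Differences are log2 fold changes ± SE from that fit. Of the 63 gene and contrast pairs, 39 passed an adjusted p of 0.05. Pools of animals stand behind the 4 libraries. With library as a covariate, the p-values measure the spread left between the 68 columns, pooled over the 17 cell types. They do not measure a spread between libraries. Columns of 1 library come from the same animals and are not separate replicates. In the contrast of neurons with non-neuronal types, neurons stand for the excitatory and inhibitory types, and CR-CR was on neither side. Between neurons and non-neuronal types, 1 member was higher in neurons and 4 were lower, against 37.1% of all genes higher and 35.1% lower. Between excitatory and inhibitory types, 4 were higher and 2 lower, against 25.8% and 27.3%. In Exc-DG against the CA1 and CA3 types, 2 were higher and 3 lower, against 24.9% and 23.6%. In CR-CR against the other neurons, 3 were higher and 1 lower, against 13.7% and 15.7%. In NN-ODC against NN-OPC, 4 were higher and 2 lower, against 22.1% and 24%. In NN-MGC against the other non-neuronal types, 5 were higher and 1 lower, against 20.9% and 22%. In NN-Astro against the other non-neuronal types, 3 were higher and 4 lower, against 26.3% and 18%. The median member difference was 0.30 in the microglial contrast, beside -0.10 over all genes. Without D2 library 3, 2 members passed in CR-CR, and the same number passed without B6 library 3.

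**Figure D2:**
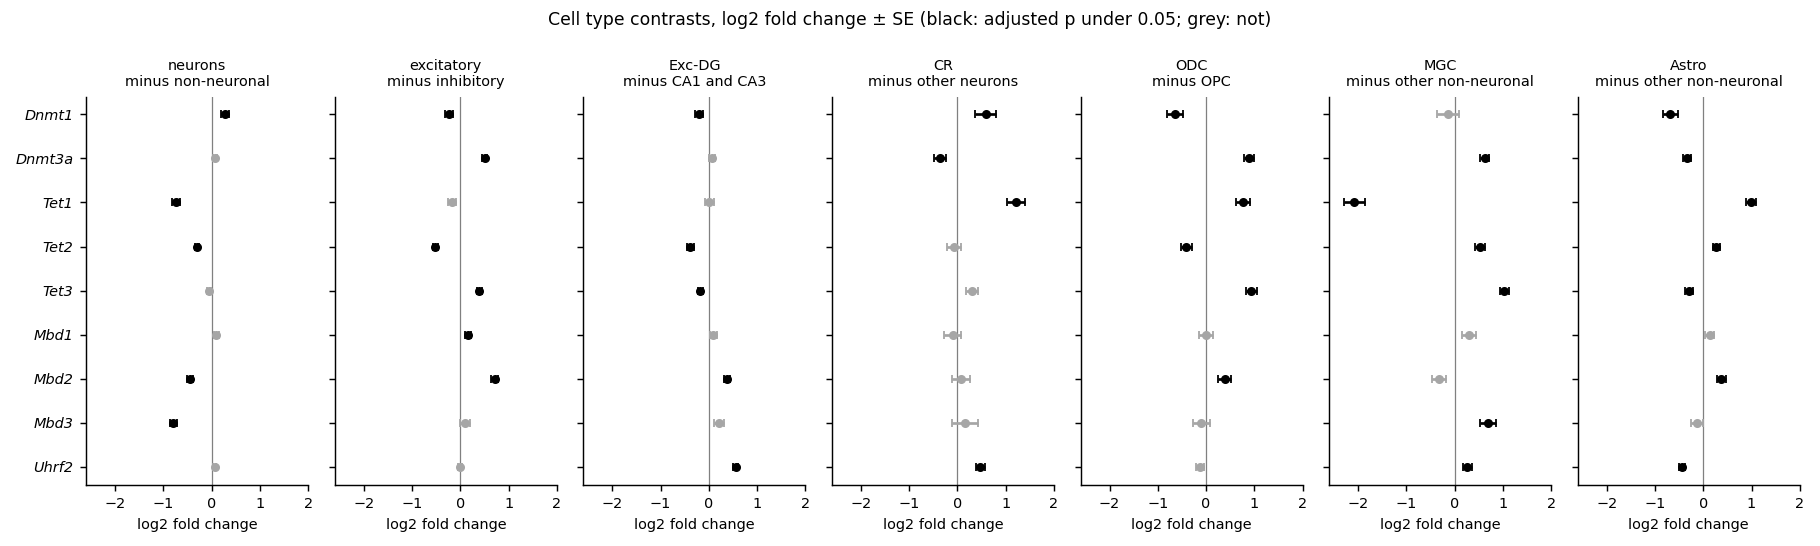
Log2 fold change ± SE (horizontal axis) of the 9 genes (vertical axis) in the 7 cell type contrasts, black where the adjusted p was under 0.05 and grey elsewhere. Tet1 spans the widest range, from 1.21 in CR-CR against other neurons to -2.08 in microglia against the other non-neuronal types.

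Among the writers, Dnmt1 (chr9:20907209-20959888, minus strand) was the maintenance enzyme's gene and was low everywhere. Its level was 38.4 ± 3.2 CPM (SD, n = 4) in CR-CR, 30.0 ± 2.2 in NN-OPC and 10.5 ± 1.1 in NN-Astro, a range of 3.66-fold. In CR-CR it was 37.5 and 37.3 CPM in B6 and 35.8 and 43.1 CPM in D2, in NN-OPC 27.3, 30.7, 32.7 and 29.5 CPM, and the libraries of CR-CR all lay above those of NN-OPC. The CR-CR values rest on 18, 18, 5 and 7 counts. Since 3 counts were worth 21.5 CPM in CR-CR of D2 library 2, the step from 32.7 to 35.8 CPM is not resolved. No other neighbouring pair of its 17 ordered types was separated. Oligodendrocyte precursors, the glial cells that still divide, thus held more Dnmt1 than mature oligodendrocytes, where the difference was -0.64 ± 0.17 (edgeR adjusted p = 0.00126). NN-Astro was lower than the other non-neuronal types by -0.68 ± 0.16 (adjusted p = 0.000196). Neurons were higher than non-neuronal types by 0.28 ± 0.09 (adjusted p = 0.00295) and inhibitory neurons higher than excitatory ones (-0.23 ± 0.08, adjusted p = 0.012), though the latter had an adjusted p of 0.260 without B6 library 2 and of 0.134 without D2 library 2. Exc-DG was below CA1 and CA3 (-0.20 ± 0.09, adjusted p = 0.0432), which did not pass when any 1 of the 4 libraries was left out (adjusted p from 0.0809 to 0.320). The CR-CR difference from other neurons, 0.59 ± 0.22 (adjusted p = 0.0324), had an adjusted p of 0.0909 without D2 library 3, 0.187 without B6 library 2 and 0.0917 without B6 library 3. In 1 strain alone several Dnmt1 differences did not pass, with an adjusted p of 0.104 for neurons, 0.422 for inhibitory neurons and 0.499 for CR-CR in D2, and of 0.0633 for oligodendrocytes, 0.112 for astrocytes and 0.669 for Exc-DG in B6.

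Dnmt3a (chr12:3806007-3914443, plus strand), the de novo enzyme and the most counted member, was highest in microglia. NN-MGC held 282 and 258 CPM in B6 and 234 and 249 CPM in D2, a mean of 256 ± 19.8. Its lowest level was in NN-OPC, with 97.8, 92.6, 111 and 92.6 CPM. The mean levels of neurons split by class. The excitatory types lay between 142 ± 5.3 CPM in Exc-CA1-Fras1 and 174 ± 6.3 CPM in Exc-ENT, and the inhibitory types between 109 ± 14.9 CPM in Inh-Lamp5 and 127 ± 3.7 CPM in Inh-CGE. Exc-CA1-Fras1, at 138 to 149 CPM, and Inh-CGE, at 122 to 131 CPM, did not overlap. This was the only step without overlap between types neighbouring in the order of means. Inh-MGE, at 106 to 141 CPM, did overlap Exc-CA1-Fras1, so single libraries of the 2 classes were not fully separated. Excitatory types were higher by 0.50 ± 0.05 (adjusted p = 3.98e-14). In glia, oligodendrocytes were above their precursors by 0.89 ± 0.11 (adjusted p = 8.42e-11), microglia were above the other non-neuronal types by 0.63 ± 0.09 (adjusted p = 2.57e-08), and astrocytes were below them by -0.34 ± 0.08 (adjusted p = 0.000168). The 2 writers thus ran in opposite directions between oligodendrocytes and precursors, a pattern seen as 2 separate tests and not tested as a difference of differences. In CR-CR, Dnmt3a differed from the other neurons by -0.36 ± 0.12 (adjusted p = 0.0186), with 171 and 159 CPM in B6 and 150 and 111 CPM in D2. Without D2 library 3 the adjusted p was 0.0804 and without B6 library 3 it was 0.0661, and over all alternatives it ran to 0.112.

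Among the erasers, Tet1 (chr10:62804570-62908996, minus strand) varied most between cell types, by 5.29-fold from CR-CR to Exc-CA1-Fras1. CR-CR held 85.5, 89.0, 100.2 and 67.7 CPM and NN-Astro 78.8, 77.4, 82.0 and 79.1 CPM. The range of CR-CR enclosed that of NN-Astro, so their order is not resolved. Exc-DG, by contrast, held 23.5, 21.9, 19.1 and 19.4 CPM, and Exc-CA1-Fras1 15.1, 12.7, 17.9 and 19.1 CPM. Tet1 was lower in neurons, CR-CR not included, than in non-neuronal types (-0.75 ± 0.09, adjusted p = 6.49e-12). Against the other non-neuronal types it was higher in astrocytes (0.99 ± 0.11, adjusted p = 2.35e-12). It was lower in microglia (-2.08 ± 0.22, adjusted p = 5.44e-13), at 13.6, 17.5, 18.2 and 25.3 CPM. Oligodendrocytes were above precursors by 0.77 ± 0.14 (adjusted p = 5.25e-06). CR-CR was above the other neurons by 1.21 ± 0.19 (adjusted p = 3.16e-07), and by 1.28 without D2 library 3.

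Tet2 (chr3:133463679-133545139, minus strand), whose protein lacks the CXXC DNA-binding domain that TET1 and TET3 carry, was highest in NN-MGC. The libraries there spread widely, at 154, 116, 178 and 131 CPM. The lowest level was in Exc-DG, with 43.5, 43.3, 43.0 and 47.5 CPM. Inhibitory types were above excitatory ones (-0.52 ± 0.05 for excitatory minus inhibitory, adjusted p = 2.93e-14), which is the direction opposite to that of Dnmt3a and Tet3. Exc-DG was below the CA1 and CA3 types by -0.38 ± 0.07 (adjusted p = 8.6e-07). Microglia (0.52 ± 0.10, adjusted p = 1.63e-05) and astrocytes (0.27 ± 0.08, adjusted p = 0.00189) were each above the other non-neuronal types, oligodendrocytes were below precursors (-0.41 ± 0.12, adjusted p = 0.00222), and neurons were below non-neuronal types (-0.31 ± 0.05, adjusted p = 1.35e-08).

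Tet3 (chr6:83362373-83459084, minus strand), the TET gene most counted here, had the clearest steps. NN-MGC held 187 and 160 CPM in B6 and 168 and 135 CPM in D2, above CR-CR with 119, 122, 100.2 and 98.5 CPM, which in turn lay above Exc-CA1-Galntl6 with 82.8, 82.1, 80.7 and 77.2 CPM. None of these 3 ranges overlapped the next. Microglia exceeded the other non-neuronal types by 1.03 ± 0.10 (adjusted p = 1.4e-14) and oligodendrocytes exceeded precursors by 0.93 ± 0.11 (adjusted p = 1.63e-10). The precursors were the lowest of all types, at 51.8, 55.7, 40.8 and 40.7 CPM. Excitatory types were above inhibitory ones by 0.39 ± 0.05 (adjusted p = 2.05e-09), while astrocytes were below the other non-neuronal types by -0.29 ± 0.08 (adjusted p = 0.0017). The adjusted p of the astrocyte difference was 0.0603 without B6 library 3 and 0.606 in the D2 libraries alone. In Exc-DG it was below CA1 and CA3 by -0.17 ± 0.06 (adjusted p = 0.0105), which without B6 library 2 had an adjusted p of 0.0976, and up to 0.115 over all alternatives.

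Among the readers, Mbd1 was the flattest member, with 1.67-fold between its highest and lowest type. NN-MGC held 54.4, 52.4, 61.5 and 48.9 CPM and NN-ODC 25.7, 34.1, 42.5 and 27.6 CPM, and no neighbouring types in its order were separated. It passed 1 of the 7 contrasts, excitatory minus inhibitory, at 0.16 ± 0.06 (adjusted p = 0.0285). In the B6 libraries alone that difference was 0.03 (adjusted p = 0.868), and it did not pass without D2 library 2 (adjusted p = 0.201) or without D2 library 3 (adjusted p = 0.128).

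Mbd2 was higher in excitatory than in inhibitory neurons by 0.71 ± 0.07 (adjusted p = 3.52e-13), the largest such difference of the 9 genes. Exc-DG held 68.9, 63.8, 71.6 and 69.3 CPM, Inh-MGE 39.9, 39.9, 34.6 and 31.2 CPM, and Inh-Lamp5, the lowest type, 20.3, 38.2, 19.0 and 34.8 CPM. Exc-DG was above CA1 and CA3 by 0.38 ± 0.07 (adjusted p = 4.65e-06). NN-VLMC had the highest mean, 95.6 ± 24.4 CPM, and astrocytes were above the other non-neuronal types by 0.38 ± 0.09 (adjusted p = 0.000466). Neurons were below non-neuronal types (-0.45 ± 0.06, adjusted p = 3.93e-10). Oligodendrocytes exceeded precursors by 0.39 ± 0.14 (adjusted p = 0.0187), and 5 of 10 alternatives lost the call, with an adjusted p of 0.172 without B6 library 2, 0.130 without B6 library 3 and 0.659 in the D2 libraries alone.

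Mbd3 (chr10:80392539-80399550, minus strand), the NuRD subunit whose MBD domain does not bind methylated CG in mammals, had the fewest counts. It was highest in NN-MGC, with 48.6 and 49.7 CPM in B6 and 31.9 and 35.4 CPM in D2, then in NN-VLMC, with 31.1, 33.3, 30.3 and 25.7 CPM. The next type, NN-OPC, with 18.7, 20.0, 25.3 and 19.6 CPM, was separated from NN-VLMC. Neurons were lower than non-neuronal types by -0.80 ± 0.08 (adjusted p = 1.3e-14), the largest such difference of the members, and microglia were above the other non-neuronal types by 0.69 ± 0.16 (adjusted p = 0.000262), or in the D2 libraries alone by 0.36 (adjusted p = 0.378). The lowest type was Exc-Gpc6, at 5.86, 10.0, 11.5 and 12.3 CPM.

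Uhrf2 (chr19:30030513-30093722, plus strand) was highest in CR-CR and, among the other neurons, in Exc-DG. CR-CR held 169, 180, 165 and 228 CPM, above NN-MGC with 138, 140, 159 and 118 CPM, and Exc-DG held 130, 125, 123 and 121 CPM. Exc-CA3 held 71.0, 78.0, 78.1 and 77.1 CPM, so that no library of CA3 reached any of Exc-DG. Exc-DG was above the CA1 and CA3 types by 0.56 ± 0.05 (adjusted p = 3.25e-15), and CR-CR was above the other neurons by 0.48 ± 0.10 (adjusted p = 7.08e-05), or 0.41 without D2 library 3, and in the D2 libraries alone the adjusted p was 0.0956. Astrocytes, the lowest type at 71.8 ± 3.9 CPM, were below the other non-neuronal types by -0.44 ± 0.07 (adjusted p = 1.41e-07). In microglia the difference was 0.26 ± 0.09 (adjusted p = 0.0136), with an adjusted p of 0.256 without D2 library 2, 0.154 in the B6 libraries alone and 0.222 in the D2 libraries alone.

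For each member, the genes with the most similar profile over the 17 cell types were sought among 15061 genes by Pearson's r of mean log2(CPM + 1). The points share libraries and depth, and the values are descriptions. Mbd3 was close to Extl3 (r = 0.948) and Cflar (r = 0.946). Dnmt1 was followed by Nsd2 (0.917), Lmnb1 (0.897) and Polr3k (0.896), and Dnmt3a by Pdgfb (0.870), Fam117b (0.857) and Ell (0.847). Tet1 was nearest to E130102H24Rik (0.908), Zcchc3 (0.901) and BC034090 (0.900). Tet2 was nearest to Mafg (0.911), Fzr1 (0.897) and Cops7a (0.893), and Tet3 to M1ap (0.903), Nudt16l1 (0.897) and Asxl1 (0.892). Mbd1 was nearest to Cdca4 (0.901), Tkfc (0.898) and Dapk3 (0.891), Mbd2 to Aff1 (0.878), Tpcn1 (0.872) and Gtf2i (0.859), and Uhrf2 to Morf4l2 (0.917), Smg6 (0.885) and Zfp873 (0.879).

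The strains were compared within each cell type, D2 minus B6, 2 libraries against 2. An exact permutation test of a single value cannot go below p = 0.33 at this size, so the values rest on edgeR's spread over all genes. Of the 153 gene and cell type pairs, 151 were tested, since Mbd3 in CR-CR and Dnmt1 in NN-VLMC did not pass the filter on low counts. In D2, 2 pairs were called higher and 2 lower, which is 4 of 151 against 22.1% of all gene and cell type pairs. At an unadjusted p under 0.05 there were 17, beside 69742 of the 219518 pairs of all genes. The standard error of a member pair had a median of 0.17 and ran from 0.07 to 0.48. DESeq2 called 0 of 153, with 1 at an unadjusted p under 0.05. In the other 14 cell types no member was called. Both libraries of 1 strain lay below both of the other in 70 of the 153 pairs. Such a separation has the exact p of 0.33 given above, was common and alone marks no call. Its share over all genes was not computed.

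**Figure D3:**
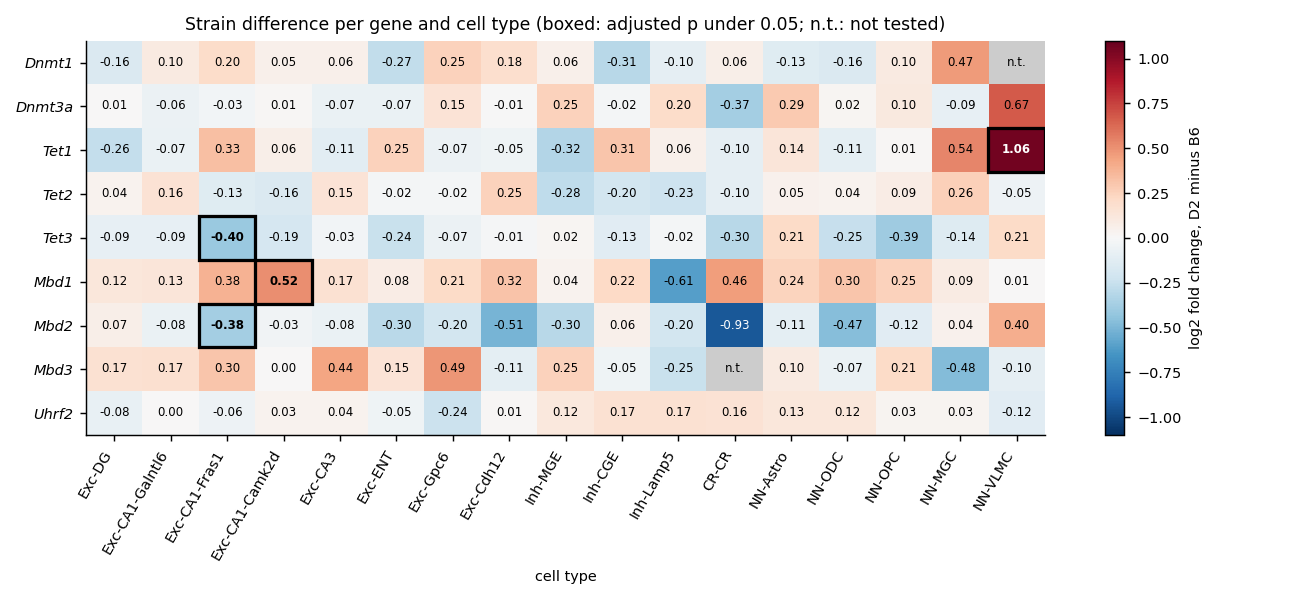
Log2 fold change of D2 minus B6 (colour) for the 9 genes (vertical axis) in 17 cell types (horizontal axis), boxed where the adjusted p was under 0.05. The 4 boxes are Tet3 and Mbd2 in Exc-CA1-Fras1, Mbd1 in Exc-CA1-Camk2d and Tet1 in NN-VLMC.

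Tet3 in Exc-CA1-Fras1 was 76.8 and 88.4 CPM in B6 and 64.3 and 66.5 CPM in D2. Both D2 libraries were below both B6 libraries, and the difference was -0.40 ± 0.11 (edgeR adjusted p = 0.00864), in a type where 28.5% of all genes were called. Mbd2 in the same type was 58.9 and 63.3 CPM in B6 and 42.4 and 57.3 CPM in D2, again without overlap, with -0.38 ± 0.13 (adjusted p = 0.0368). Over all alternatives the adjusted p ran from 0.00156 to 0.130 for Tet3 and from 0.0111 to 0.502 for Mbd2. For Tet3 the adjusted p was 0.0914 without B6 library 3, 0.0745 without D2 library 2, 0.0560 without D2 library 3 and 0.130 with DESeq2. For Mbd2 it was 0.0999 without B6 library 3, 0.502 without D2 library 2 and 0.317 with DESeq2, and without D2 library 2 its difference was -0.18. Several marker lists also differed between strains in Exc-CA1-Fras1. The CA1 list summed to 30.5 to 40.6 CPM in B6 and 51.0 to 55.4 in D2, the oligodendrocyte list to 41.2 to 44.9 and 22.1 to 23.9, and the vascular list, almost wholly Dcn, to 105 to 134 and 198 to 209. Flt1 and Cldn5, the endothelial markers, were at or near 0 there, from 0 to 2.54 CPM. The oligodendrocyte and vascular shifts were not particular to this type. In Exc-CA1-Galntl6, where no member was called, the oligodendrocyte list summed to 43.1 to 44.8 CPM in B6 and 24.5 to 24.9 in D2. The vascular list there summed to 60.7 to 68.3 and 113 to 138, while the CA1 list overlapped, at 96.3 to 109 and 97.3 to 97.7. The part of the Exc-CA1-Fras1 shifts in the Tet3 and Mbd2 results was not tested.

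Mbd1 in Exc-CA1-Camk2d was 30.9 and 31.6 CPM in B6 and 47.1 and 43.7 CPM in D2. The strains did not overlap, and D2 was higher by 0.52 ± 0.15 (adjusted p = 0.0317), in a type where 19.4% of all genes were called. The adjusted p was 0.281 without D2 library 2, 0.152 without D2 library 3, 0.0536 over genes counted in both strains and 0.355 with DESeq2, and its lowest value over all alternatives was 0.0235. In this type several marker lists did not overlap between strains. The oligodendrocyte list summed to 41.4 to 45.2 CPM in B6 and 24.1 to 29.8 in D2, the microglial list to 198 to 210 and 156 to 171, the vascular list to 190 to 219 and 253 to 301, and the excitatory list to 384 to 398 and 448 to 460. These lists were also apart between the strains in Exc-CA1-Galntl6, where no member was called. The part of the marker shifts in the Mbd1 result was not tested. Mbd1 was higher in D2 in 16 of 17 cell types, with a median of 0.21, and Inh-Lamp5 was the exception at -0.61. The cell types come from the same 4 libraries and are not 17 replicates. In Exc-CA1-Fras1 it was 34.7 and 30.0 CPM in B6 and 47.1 and 41.1 CPM in D2 (0.38, adjusted p = 0.0542).

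Tet1 in NN-VLMC was 35.6 and 49.9 CPM in B6 and 94.4 and 80.2 CPM in D2, from 8, 24, 56 and 25 counts. The strains were separated, with 1.06 ± 0.35 (adjusted p = 0.0482), and 7.87% of all genes were called in this type. The adjusted p was 0.240 without B6 library 2, 0.109 without B6 library 3, 0.320 without D2 library 2, 0.0826 with every counted gene tested, 0.0585 over genes counted in both strains and 0.9999 with DESeq2. Its lowest value was 0.026, with an overlapping RNA added. Dnmt3a in NN-VLMC was 169 and 154 CPM in B6 and 258 and 218 CPM in D2 (0.67 ± 0.25, adjusted p = 0.0936). Some markers of the cells in NN-VLMC also differed. Dcn, of fibroblast-like cells, was 289 and 306 CPM in B6 and 463 and 581 CPM in D2. Flt1, of endothelial cells, was 538 and 520 CPM in B6 and 244 and 276 CPM in D2. The rest of the vascular list overlapped between strains. Col1a1 was 160 and 104 CPM in B6 and 123 and 164 CPM in D2, and Cldn5 97.8 and 64.5 against 45.5 and 77.0 CPM. The list summed to 995 to 1084 CPM in B6 and 876 to 1097 CPM in D2. The astrocyte list in NN-VLMC summed to 739 to 960 CPM in B6 and 971 to 1113 CPM in D2. Slc1a3 was 742 and 583 against 812 and 898 CPM. Gja1, at 178 and 144 against 143 and 189 CPM, overlapped, and so did Aqp4. NN-Astro was among the types with the most Tet1. The part of these markers in the Tet1 and Dnmt3a values was not tested.

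Over cell types, Tet3 was lower in D2 in 14 of 17 types (median -0.09) and Mbd2 in 13 of 17 (median -0.12). Uhrf2 was higher in 12 (median 0.03) and ranged from -0.24 to 0.17, the narrowest spread of the 9. Dnmt3a ranged from -0.37 in CR-CR to 0.67 in NN-VLMC, and Tet2 from -0.28 to 0.26. Mbd2 in NN-ODC was 73.0 and 64.7 CPM in B6 and 46.8 and 45.9 CPM in D2 (-0.47 ± 0.17, adjusted p = 0.0605). Mbd2 in CR-CR was 77.1 and 72.5 against 35.8 and 43.1 CPM, from 37 and 35 against 5 and 7 counts. Its difference of -0.93 ± 0.43 (adjusted p = 0.287) was the most negative value of any pair. When the 17 types were summed to 1 column per library, an analysis chosen after seeing the data, 46.7% of 25728 genes were called. Of the 9 members, 0 were called by edgeR or DESeq2. At an unadjusted p under 0.05 by edgeR was 1 member, Tet3, beside 13596 of all genes. Tet3 then stood at 75.7 and 74.3 CPM in B6 and 69.2 and 69.3 CPM in D2 (-0.16 ± 0.07, adjusted p = 0.0705). Mbd1 stood at 36.9 and 35.9 against 42.4 and 40.7 CPM (0.15 ± 0.07, adjusted p = 0.112), and Mbd2 at 57.1 and 56.5 against 51.5 and 54.6 CPM (-0.14 ± 0.07, adjusted p = 0.111). Dnmt3a, with 148, 153, 156 and 152 CPM, differed by -0.01 ± 0.07 (adjusted p = 0.927), and its strains overlapped. Summing weights each type by its share of a library's counts. The fold changes used TMM-scaled totals and the printed CPM the plain totals, so that a difference near 0 can differ in sign from the CPM, as for Dnmt3a.

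**Figure D4:**
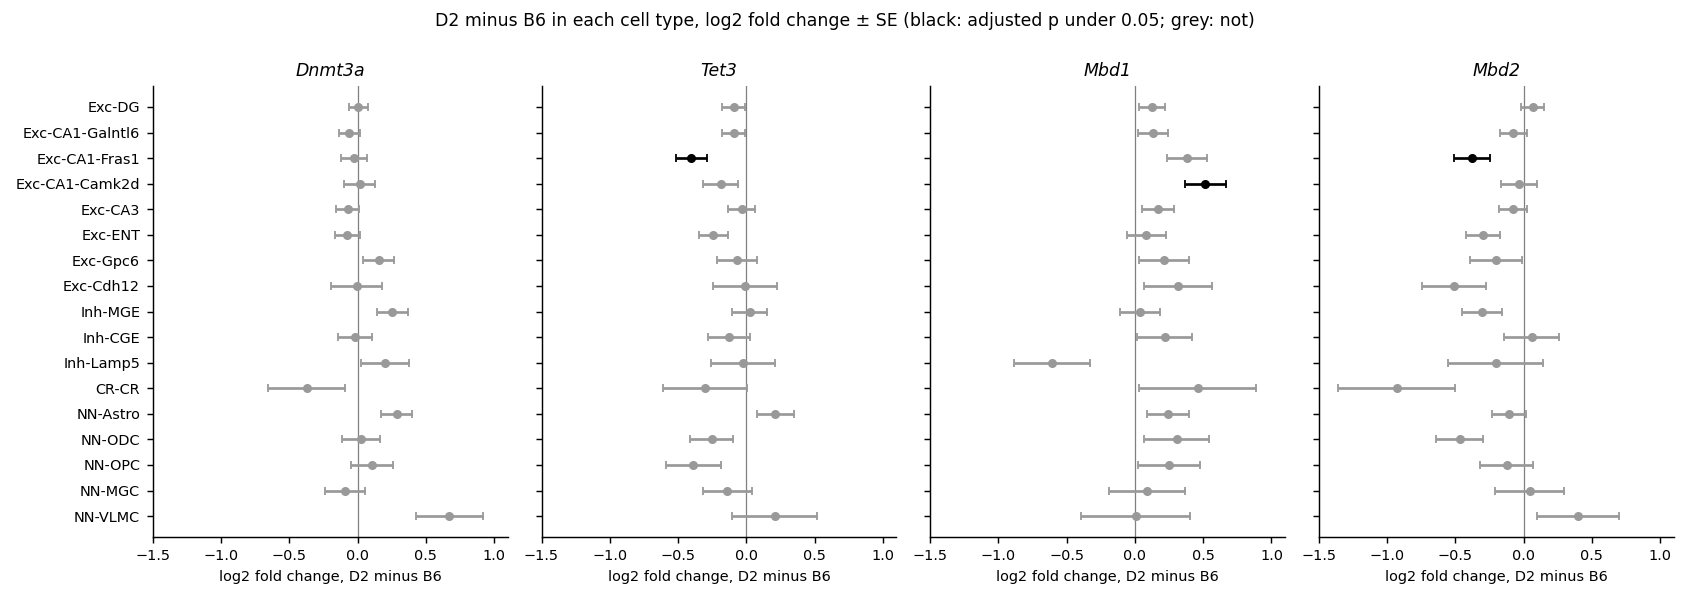
Log2 fold change ± SE of D2 minus B6 (horizontal axis) in 17 cell types (vertical axis) for Dnmt3a, Tet3, Mbd1 and Mbd2, black where the adjusted p was under 0.05. Mbd1 lies to the right of 0 in 16 of 17 types, Tet3 to the left in 14 and Dnmt3a on both sides.

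Whether the strain difference was the same in every cell type was tested by the interaction of strain and type. Of all genes 15.9% were called, and of the members Dnmt3a alone (edgeR adjusted p = 0.0391). At an unadjusted p under 0.05 were 4 of the 9 members, beside 4914 of 19198 genes. Tet1 had an adjusted p of 0.0869, Mbd2 of 0.136 and Tet3 of 0.168, and the other 5 lay between 0.343 and 0.950. For Dnmt3a, NN-VLMC (0.67) and NN-Astro were higher in D2, the latter with 101 and 114 CPM in B6 and 114 and 132 CPM in D2 (0.29, adjusted p = 0.0608), while CR-CR was lower. Without NN-VLMC, an analysis chosen after seeing the data, the adjusted p was 0.327, without CR-CR, the type of fewest nuclei, it was 0.0656, and with another scaling of the libraries 0.0595. The call was thus lost under 3 of the 5 alternatives run for it.

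Some annotated RNAs overlap members and could share their reads. On the same strand within Tet3, 5430434F05Rik had 0 counts in B6 and 260 in D2, beside 8289 and 6588 for Tet3, and within Tet1, Gm48353 had 0 and 76, beside 3470 and 3091. Adding these counts to the member left Tet3 in Exc-CA1-Fras1 at -0.34 (adjusted p = 0.027) and Tet1 in NN-VLMC at 1.14 (adjusted p = 0.026). On the opposite strand, Dnmt3aos had 1274 and 1293 counts over Dnmt3a and Gm42567 had 422 and 412 over Tet2, in B6 and D2.

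Chromatin accessibility was a readout apart from the RNA rows. The peak table held 300819 peaks in 60 columns of 15 cell types, without CR-CR and NN-VLMC among them, with 278059 to 27815541 counts a column. Within 500 bases of an annotated start of a member lay 15 peaks, and every member had at least 1. The main promoter peaks of Dnmt1, Dnmt3a, Tet2, Tet3, Mbd1, Mbd2, Mbd3 and Uhrf2 were at 20.4 CPM or more on average in every type. The Mbd3 peak had the most counts, from 66.5 CPM in Exc-CA3 to 152 CPM in NN-ODC. Mbd3 RNA was the least counted of the 9, but at 2.02 CPM per kilobase of gene it was below Mbd1 alone. At Dnmt3a (chr12:3805887-3808647, with 4 annotated starts and the 46 CpG window printed above) the peak ran from 31.1 ± 2.6 CPM in Exc-CA1-Fras1 to 77.5 ± 6.7 CPM in NN-Astro, a type in which Dnmt3a RNA was among the lowest. Exc-CA3 had the lowest accessibility for several members, and also the lowest share of all counts in promoter peaks, 24.2% against 42.0% in NN-ODC, and the part of that share in the members' levels was not tested. Tet1 had the weakest main peak (chr10:62885815-62887479), at 17.1, 18.5, 10.8 and 16.0 CPM in NN-Astro, where its RNA was high, and 3.11 CPM in Exc-CA1-Fras1, where it was lowest.

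A second Dnmt3a peak (chr12:3861275-3862533), 254 bases from an internal start, was highest in 1 cell type. In Exc-Gpc6 it had 27.1, 27.2, 27.0 and 28.3 CPM. The next types, NN-MGC and Exc-Cdh12, had 12.1 and 11.9 CPM on average, and NN-ODC had the least, 1.22 CPM from 2 counts. Dnmt3a RNA in Exc-Gpc6 was 173 ± 19.9 CPM, within the range of the other excitatory types. The peak also overlaps the antisense gene Dnmt3aos, whose RNA in Exc-Gpc6 was 12.3, 12.1, 18.9 and 14.3 CPM. No peak lay at the internal Dnmt3a start of the 18 CpG window or at the upstream Dnmt1 start of the 2 CpG window. Tet3 had 2 peaks of unequal pattern. The one at the printed window (chr6:83439246-83441939) ran from 39.5 CPM in Exc-CA3 to 65.9 CPM in NN-Astro, and the upstream one (chr6:83455249-83457174) from 11.9 CPM in Exc-CA1-Galntl6 on average to 36.3, 80.9, 30.6 and 28.1 CPM in NN-MGC. The high mean of NN-MGC rests on B6 library 3, and the other libraries there lie within the 27.5 to 49.0 CPM of NN-ODC.

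**Figure D5:**
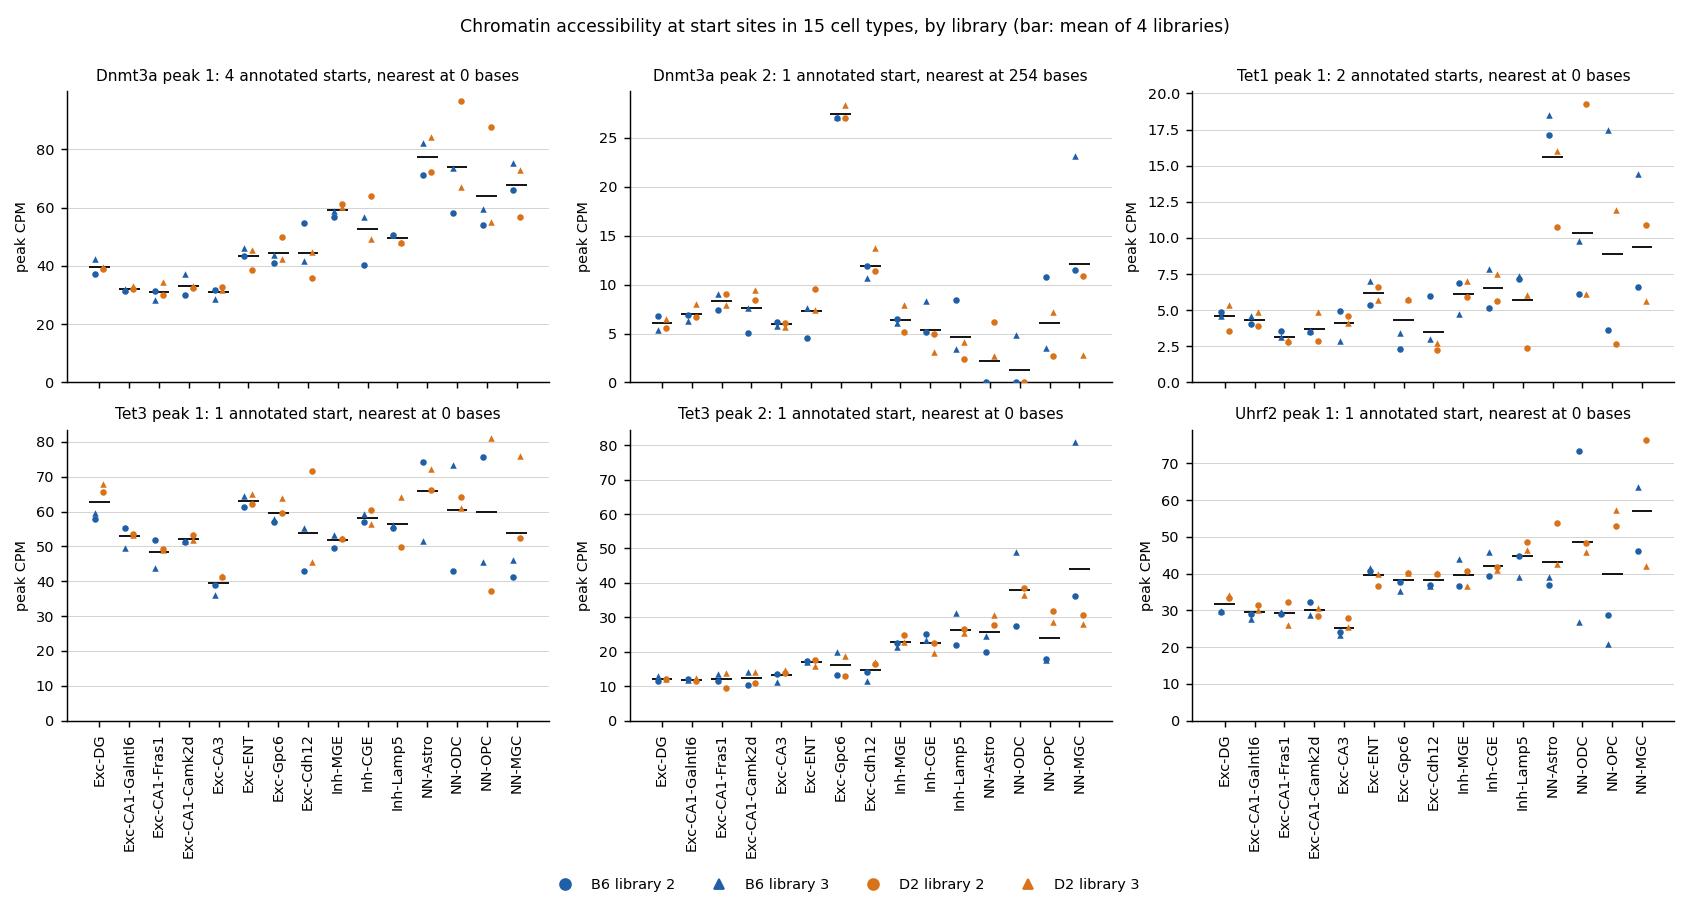
Accessibility in CPM (vertical axis) of member peaks at annotated starts in 15 cell types (horizontal axis), with a point for each B6 or D2 library and a bar at the mean of the 4 libraries. The second Dnmt3a peak is at 27.0 to 28.3 CPM in Exc-Gpc6 and at most 12.1 CPM on average elsewhere.

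In the 3 cell types with the most accessibility counts, the strains were compared over all peaks. Of 45 tests on member peaks, 2 were called, against 5.42% of all peaks in these types. Among peaks at RefSeq promoter windows the share called was 7.73% in Exc-DG, 5.30% in Exc-CA1-Galntl6 and 7.60% in Exc-CA3. At an unadjusted p under 0.05 there were 12, and the share of all peaks at that p was not counted. Both calls were in Exc-DG, where 5.97% of all peaks were called. The Tet3 peak at the printed window had 57.8 and 59.5 CPM in B6 and 65.5 and 67.8 CPM in D2, without overlap and higher in D2 by 0.23 ± 0.06 (edgeR adjusted p = 0.00322). The Uhrf2 peak (chr19:30029529-30031430) had 29.6 and 29.9 CPM in B6 and 33.4 and 34.3 CPM in D2, also without overlap, by 0.23 ± 0.07 (adjusted p = 0.0237). Promoter peaks as a class were shifted towards D2 in Exc-DG, by a median of 0.05 over 14440 peaks. Within promoter peaks alone the Tet3 difference was 0.18 (adjusted p = 0.013) and that of Uhrf2 0.18 (adjusted p = 0.0847). DESeq2 called 0 of the 45, with 2 at an unadjusted p under 0.05. For Tet3 the adjusted p was 0.240 without B6 library 2 and 0.0585 without B6 library 3, and for Uhrf2 0.299, 0.155 and, without D2 library 3, 0.0945. The RNA of neither gene was called in Exc-DG, where Tet3 was 67.4 and 72.0 against 67.3 and 65.4 CPM and Uhrf2 130 and 125 against 123 and 121 CPM.

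The remaining machinery was read from a list of 49 further genes, 48 of them in the table. Between strains, 57 of 635 gene and cell type pairs were called, 22 higher and 35 lower in D2, beside 22.1% of the pairs of all genes. The other writers and their regulators, such as Dnmt3b and Uhrf1, gave 0 of 32, and the other readers, such as Mbd5, gave 1 of 105. The oxidised base and repair group gave 30 of 147, 7 higher and 23 lower, the NuRD partners 9 of 185, the NCoR corepressor group 6 of 84 and methyl donor supply 11 of 82. Of those 30 calls, 13 were Cxxc5, whose CXXC protein binds and regulates TET2. Cxxc5 was lower in D2 in each of the 15 types tested and called in 13, by -1.01 to -2.70, and the number of types called ran from 8 with DESeq2 to 15 with every counted gene tested. In Exc-DG it was 23.8 and 23.0 CPM in B6 and 5.11 and 4.43 CPM in D2 (-2.31 ± 0.16, adjusted p = 4.52e-08). In NN-MGC it was 91.4 and 80.6 CPM in B6 and 25.0 and 21.9 CPM in D2 (-1.81 ± 0.30, adjusted p = 0.000491). The strains overlapped in none of the 17 types, a measure whose share over all genes was not computed. The types not tested rest on few counts, 7, 11, 1 and 0 in Inh-Lamp5 and 9, 12, 7 and 4 in NN-VLMC. Tet2, its partner, had 43.5 and 43.3 against 43.0 and 47.5 CPM in Exc-DG and passed in no type, with its lowest adjusted p at 0.0889. A same-strand RNA overlaps Cxxc5 in the annotation and its counts were not analysed here.

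Of the methyl donor genes, Mat2a, which makes S-adenosylmethionine for the DNMTs, was 503 and 425 CPM in B6 and 217 and 177 CPM in D2 in NN-ODC (-1.14 ± 0.13, adjusted p = 2.65e-07). It was lower in D2 also in NN-Astro (-0.60 ± 0.10, adjusted p = 8.95e-06) and NN-OPC (-0.57 ± 0.13, adjusted p = 0.000157). In the interaction of strain and type, 4 of 44 list genes were called, beside 15.9% of all genes. They were Mat2a, Mta3, Tbl1x and Cxxc5.

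Between cell types, the NuRD partners of MBD2 and MBD3 gave 8 of 11 higher and 1 lower in Exc-DG against CA1 and CA3, beside 24.9% and 23.6% of all genes. Hdac1, a deacetylase, was higher by 0.72 ± 0.07 (adjusted p = 5.56e-13) and Chd4, the remodelling ATPase, by 0.46 ± 0.05 (adjusted p = 1.61e-11), beside 0.38 for Mbd2 itself. Cxxc4, a relative of Cxxc5, was lower there by -2.36 ± 0.13 (adjusted p = 5.28e-26). Over the 44 list genes tested, 16 were higher and 8 lower in Exc-DG. In neurons against non-neuronal types 11 were higher and 18 lower, beside 37.1% and 35.1% of all genes, and in excitatory against inhibitory types 13 and 13, beside 25.8% and 27.3%. In CR-CR against other neurons 11 were higher and 4 lower, beside 13.7% and 15.7%. In CR-CR, Neil3, a DNA glycosylase, had 49 counts, beside 65 over the 11 other neuronal types, 8 of which had means below 1 CPM. Oligodendrocytes against precursors gave 12 and 13, beside 22.1% and 24% of all genes, with Chd3 at -1.80 ± 0.11 (adjusted p = 1.30e-22) and Mat2a at 1.14 ± 0.14 (adjusted p = 1.62e-10). Microglia gave 8 and 8, beside 20.9% and 22%, led by Mtr, methionine synthase, at 1.74 ± 0.14 (adjusted p = 7.03e-18), and astrocytes 10 and 9, beside 26.3% and 18%, led by Gadd45g, a stress-induced gene linked to demethylation, at 2.25 ± 0.19 (adjusted p = 9.78e-17).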

How the data were processed

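Nuclei of ventral hippocampus from B6 and D2 males were profiled by single-nucleus RNA and accessibility sequencing. Per the study's methods and labels, the authors ran Cell Ranger 6.0.2 and Cell Ranger ATAC 2.0.0 on mm10, with D2 reads mapped to mm10 carrying D2 variants, kept intronic reads, removed doublets with DoubletFinder, and filtered and clustered nuclei with Seurat 4.0.5; the annotation release is not given in the sources used here. The authors deposited raw counts summed per library, cell type and gene or peak, and their cell type names were used as given. Columns were placed by strain, since their numbers (2 and 3) are not the replicate numbers of the labels. Methylation samples were not analysed here.

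The counts of all genes were fitted with edgeR 4.0.16 (R 4.3.3, limma 3.58.1), with TMM scaling, filterByExpr and the quasi-likelihood test. P-values were adjusted by Benjamini-Hochberg over all genes tested, with a threshold of 0.05, and standard errors came from the fold change and its F. Strains were fitted per cell type. Cell type contrasts and the interaction were fitted on all 68 columns with library as a covariate. Peaks needed at least 10 counts and lay within 500 bases of a start. Likeness was taken among genes with at least 10 CPM in 1 type or more. Settings tried were DESeq2 1.42.0, DESeq2-style scaling (RLE), no filter on low counts, genes counted in both strains, 1 strain only, each library left out and the library number as a block. Added after seeing the data were overlapping RNAs, promoter peaks only, the block for peaks, summed types and leaving out NN-VLMC. All 9 members were named in every type. Of the further list, at most 2 genes per direction and comparison were named, by adjusted p, beside Tet2's partner Cxxc5, and for likeness 3 genes per member; some genes that this rule names are not reported here. The members, lists and markers were chosen with earlier results of these data known. The scripts were tested on simulated data. Tables and figures used python 3.11.15, pandas 2.3.3, numpy 2.4.6, scipy 1.17.1 and matplotlib 3.10.9.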

Additional observations from a re-analysis of the deposited data

Results flagged for a closer look

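The D2 minus B6 difference of Dnmt3a was not the same in the 17 cell types by a test of the difference itself (interaction of strain and cell type, edgeR adjusted p = 0.0391), with values from -0.37 in CR-CR to 0.67 in NN-VLMC. The adjusted p was 0.327 without NN-VLMC, 0.0656 without CR-CR and 0.0595 with RLE scaling, so 3 of 5 alternatives lost the call. None of the 17 single-type differences of Dnmt3a passed by itself.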

How the results depend on the processing

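No result changed direction under any setting. Of the 39 cell type differences of members, 25 passed in every setting and 14 failed in at least 1, with the total between 30 and 42. Called strain pairs, 4 in the report, were 0 with DESeq2 and 2 over genes counted in both strains, and 0 to 4 with a library left out (0 without D2 library 2, with 5 at an unadjusted p under 0.05). Over all genes the 48620 strain pairs became 32329 with DESeq2 and 30094 over genes counted in both strains, and 33241 to 50988 with a library left out. Members passing between neurons and non-neuronal types rose from 5 to 8 with every counted gene and to 8 over genes counted in both strains. In Exc-DG the 5 became 3 with every counted gene and 3 to 5 with a library left out. In CR-CR the 4 became 2 in B6 alone, 2 in D2 alone and 2 to 4 with a library left out. For the interaction the 1 member called became 0 with RLE scaling, 0 without CR-CR, 0 without NN-VLMC, with 3, 2 and 3 members at an unadjusted p under 0.05, and 2 with overlapping RNAs added. Of the promoter peaks, 2 were called, and 1 among promoter peaks only, 0 with DESeq2 and 0 to 3 with a library left out (0 without B6 library 2 and 0 without B6 library 3, with 10 and 5 at an unadjusted p under 0.05). With the library number as a block, 4 strain pairs and 4 peaks were called, the latter adding Tet3 and Mbd3 in Exc-CA3. The numbers 2 and 3 mark no shared animal or day in the labels, so the libraries share only a number, and the deviations of same-numbered libraries correlated at -0.09 to 0.05 over genes. The cause of these changes was not tested, beyond the fewer samples or genes that the settings themselves hold. Depth limits CR-CR and NN-VLMC most, where 3 counts reach 21.5 and 13.3 CPM.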
